A study of Mus musculus with 6 samples.

Results

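Fatty acid oxidation and ketone body metabolism were followed through 40 genes, chosen by symbol, in the small intestine epithelium of mouse embryos at E13.5, that is, at embryonic day 13.5. The 40 genes are a small share of the 23366 genes counted in each library, and all 40 were found in the count tables. They cover 4 acyl-CoA synthetases that activate fatty acids, 26 genes of the mitochondrial steps, 7 genes of the peroxisomal steps and 3 genes of ketone body metabolism. Of these, 38 passed edgeR's filter on low counts and were tested.

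The cells came from mutant embryos, *Shh-Cre-EGFP:Tcf7l1 lox/lox*, and from wild type embryos, with 3 RNA-sequencing libraries in each group numbered 1 to 3. The mutants carry Cre recombinase at the *Shh* locus and lose a floxed exon of *Tcf7l1*, a transcription factor of the WNT pathway, in the gut epithelium. For each library 500 living cells were sorted by EpCAM, which marks epithelial cells on their surface, and 15 PCR cycles amplified the cDNA. No library carried Cre with an intact *Tcf7l1*, so the Cre allele and the loss of *Tcf7l1* cannot be told apart.

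Long-chain fatty acids are joined to coenzyme A by acyl-CoA synthetases, passed into mitochondria as carnitine esters, and shortened by repeated rounds of dehydrogenation, hydration, dehydrogenation and thiolytic cleavage. Very long and branched chains are first shortened in peroxisomes by a parallel set of enzymes. The acetyl-CoA released can enter the citrate cycle or be turned into ketone bodies, and the suckling intestine is, beside the liver, a known site of ketone body production.

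Normalized *Tcf7l1* counts were 476, 474 and 364 in the wild type and 41.4, 33.0 and 73.0 in the mutant libraries, a log2 fold change of -3.16 (SE 0.26, adjusted p = 4.19e-07, edgeR). *Shh* was also lower in the mutants (481 ± 65.8 against 198 ± 22.6 normalized counts, mean ± SD, n = 3 in each group). Total counts lay between 18216537 and 20397278. Wild type 3 stood apart from the other wild type libraries, with a chi-square per gene of 14.1 and 15.8 against them, where other pairs within a group gave 5.66 to 7.75. It was also the wild type library nearest to the mutants (24.1 to 27.8, against 33.5 to 46.6 for wild type 1 and 2). The 8 epithelial markers summed to 8516 ± 57.0 CPM, counts scaled to the same library total, in the wild type and 7569 ± 50.6 in the mutant libraries. They moved in both directions. At an edgeR adjusted p under 0.05, *Epcam* itself (log2 fold change 0.25) and *Cldn7* (0.24) were higher. By the same rule 5 were lower, *Krt8*, *Krt18*, *Krt19*, *Cdh1* and *Cdx2*. The embryos' sex differed with the genotype, since *Xist*, the RNA of the inactive X chromosome, was counted 237, 452 and 320 times (normalized) in the mutants and 0 times in each wild type library, so that sex and genotype cannot be told apart. Nothing states that the libraries came from separate embryos, and p-values then measure only the spread between these libraries. In sorted pools, fewer cells of a type and less RNA per cell cannot be told apart.

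Throughout, a gene was called where the edgeR adjusted p was under 0.01, the log2 fold change reached 0.5 in size and the mean was 50 normalized counts or more, and it passed the test at an adjusted p under 0.05 with no minimum fold. Normalized counts were scaled with edgeR's TMM factors. Fold changes are mutant over wild type.

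Among the 38 tested genes, 14 rose and 5 fell at an adjusted p under 0.05, and 19 did not pass. Without wild type 3, 15 rose and 8 fell. Of all 12501 tested genes, 13.6 percent rose and 15.1 percent fell by the same rule. The call was met by 1 gene in each direction, *Acat1* higher and *Acaa1a* lower, where 2.78 percent of all tested genes were called higher and 5.83 percent lower. The mutant libraries lay entirely above the wild type libraries for 18 of the 38 genes and entirely below for 5, against 20.8 and 22.2 percent of all tested genes. The median log2 fold change was 0.11 over the 38 genes and -0.04 over all tested genes. When libraries were scaled by their total count alone, the median over all genes moved by -0.11, that of the 38 genes became 0.01, and 6 instead of 14 rose.

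Together the 40 genes held 5957, 5883 and 5995 CPM in wild type libraries 1 to 3, against 6509, 6380 and 6452 in mutant libraries 1 to 3. The groups did not overlap, and the mean rose from 5945 ± 57.1 to 6447 ± 64.7. These are shares of all counts in a library and carry no test.

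**Figure D1:**
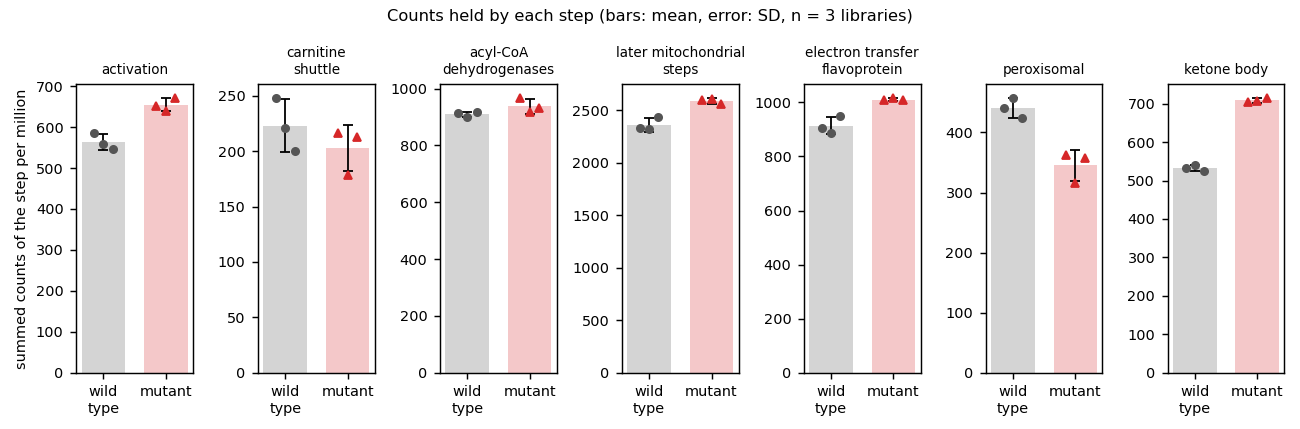
Summed counts, in CPM, of the genes of each step, with points for the 6 libraries, bars for the mean and error bars for the SD (n = 3). The ketone body step rose from 533 ± 8.63 to 709 ± 5.40 CPM, whereas the peroxisomal step was lower in the mutants, 441 ± 16.5 against 345 ± 25.8 CPM.

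A pair of DNA stretches is shown, the stretch between *Hadha* and *Hadhb* and the bases before *Acaa1a*. *Hadhb* rose at an adjusted p under 0.05, whereas *Hadha* did not pass the test (edgeR adjusted p = 0.179). *Hadha* and *Hadhb*, which encode the alpha and beta subunits of the mitochondrial trifunctional protein, lie head to head on chromosome 5, *Hadha* at chr5:30444841-30481702 on the minus strand and *Hadhb* at chr5:30481788-30511133 on the plus strand (mm9). Only 85 bases separate their outermost annotated starts (chr5:30481703-30481787, plus strand), with GC boxes, GGGCGG on either strand, in capitals.

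Hadha to Hadhb: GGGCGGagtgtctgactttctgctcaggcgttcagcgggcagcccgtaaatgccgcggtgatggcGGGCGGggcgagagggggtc

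The stretch holds 2 GGGCGG sites and no CCAAT site. *Acaa1a*, the peroxisomal thiolase gene that was called lower, starts on chromosome 9 at position 119250412 (mm9). The 250 bases before it (chr9:119250162-119250411, plus strand) are given with GGGCGG and CCAAT or their reverse complements in capitals.

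Acaa1a: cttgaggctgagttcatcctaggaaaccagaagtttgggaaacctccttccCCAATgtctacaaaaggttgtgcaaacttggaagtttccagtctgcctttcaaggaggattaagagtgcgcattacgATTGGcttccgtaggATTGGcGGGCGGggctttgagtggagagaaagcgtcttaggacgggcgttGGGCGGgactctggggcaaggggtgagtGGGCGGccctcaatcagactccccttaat

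It holds 3 CCAAT sites, in either orientation, and 3 GGGCGG sites. A promoter was found for 33 of the 40 genes in a RefSeq table (GRCm38.p6), and the 250 bases before each start were searched on both strands. A gene was counted once if any of its promoters held the motif, whereas the shares over all are of single promoter entries. These are unlike measures and cannot be compared directly. CCAAT was present in 16 of the 33 and in 33.9% of all 32851 promoters, and GGGCGG in 21 of the 33 and in 32.7%. AGGTCA, the repeat unit of the sites of nuclear receptors such as the PPARs, was present in 5 members (*Acadm*, *Acadvl*, *Cpt1a*, *Cpt1c* and *Echs1*) and in 14.0% of all promoters, and its direct repeat with any 1 base between both copies in 0 members and in 0.033% of all. The TCF/LEF core CTTTGAA was present in 0 members and in 4.46% of all promoters, and CTTTGAT in 0 members and in 3.21%. A match or its lack says only which letters these windows hold.

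Among the acyl-CoA synthetases, *Acsl5*, *Acsl3* and *Acsl1* rose and *Acsl4* fell, where 13.6% of all tested genes rose and 15.1% fell. The means of *Acsl5* and *Acsl3* were at least 3000 normalized counts, a class in which 44.8% of all tested genes rose and 7.69% fell. *Acsl5* (chr19:55327859-55371117), which encodes the long-chain synthetase prominent in enterocytes, had 5764, 5458 and 5529 normalized counts in wild type libraries 1 to 3, against 7518, 7295 and 7518 in mutant libraries 1 to 3, the order used for all genes. All mutant libraries lay well above all wild type libraries, with a log2 fold change of 0.41 (SE 0.07, adjusted p = 0.000299). *Acsl3*, a synthetase of the endoplasmic reticulum and lipid droplets, had 3388, 3241 and 3773 in the wild type and 4148, 4074 and 4698 in the mutant libraries. Its groups were apart by a smaller margin (adjusted p = 0.0101, log2 fold change 0.31, SE 0.08), and it did not pass without wild type 2 (adjusted p = 0.051) or without mutant 3 (adjusted p = 0.0752). *Acsl1*, a synthetase of oxidative tissues, had 796, 903 and 690 against 1029, 1007 and 954 normalized counts. This was a log2 fold change of 0.32 close to the threshold (SE 0.12, adjusted p = 0.0496), and the adjusted p was 0.0807 to 0.137 without any 1 of 5 libraries, all but wild type 2.

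*Acsl4*, which prefers arachidonic acid and lies on chromosome X, had 969, 684 and 618 in the wild type and 494, 666 and 346 in the mutant libraries. The groups overlapped, since mutant 2 lay above wild type 3, and the log2 fold change was -0.59 (SE 0.20, adjusted p = 0.0402). Without wild type 1, wild type 2, mutant 1 or mutant 3 its adjusted p lay between 0.0622 and 0.233. The ratio of *Acsl5* to *Acsl4* counts in a library was 5.95, 7.98 and 8.95 in the wild type and 15.2, 11.0 and 21.7 in the mutant libraries, without overlap. An exact two-sided permutation test gave p = 0.1, the smallest p that 3 against 3 libraries allow, and 0.175 adjusted over 7 pairs.

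In the carnitine shuttle no gene rose. *Cpt1a*, the gene of the liver-type carnitine palmitoyltransferase that controls entry into mitochondria, had 716, 721 and 661 normalized counts in the wild type and 732, 585 and 592 in the mutant libraries. The groups overlapped, and the log2 fold change of -0.14 (SE 0.13, adjusted p = 0.459) did not pass the test. *Cpt1b*, the muscle form, had 0 counts in all 6 libraries, which allows up to 0.0256 CPM of reads assigned to it over their summed total (3 counts of 116992389, counting error only). Since 81.4% of its exon length overlaps *Chkb* on the same strand and the handling of shared reads is not stated, this sets no limit on its expression. *Cpt1c*, the neuronal form, was scarce at 43.1, 73.6 and 40.9 in the wild type and 31.1, 13.8 and 9.96 in the mutant libraries. All mutant libraries lay below the wild type ones, with a log2 fold change of -1.51 (SE 0.53, adjusted p = 0.0415), but the adjusted p rose to between 0.0724 and 0.204 without wild type 1, wild type 2, mutant 2 or mutant 3.

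*Cpt2*, which reforms acyl-CoA inside mitochondria, had 3422, 2938 and 2819 in the wild type and 3259, 2862 and 3372 in the mutant libraries, a log2 fold change of 0.05 (SE 0.09, adjusted p = 0.722) that became -0.058 with library size as the only scaling. *Crat*, the acetyltransferase for short acyl groups, had 449, 348 and 359 against 357, 182 and 320 (adjusted p = 0.148, log2 fold change -0.43, SE 0.21). Neither pair of groups was apart. Over the step, the sum in CPM was 223 ± 24.0 in the wild type and 203 ± 21.0 in the mutant libraries.

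Of the 9 acyl-CoA dehydrogenase genes, which carry out the first step of each round, *Acadl* rose and *Acad10* fell. *Acadl*, the long-chain dehydrogenase, had 5791, 5791 and 6735 normalized counts in the wild type and 7619, 7385 and 7148 in the mutant libraries. The lowest mutant library lay above the highest wild type library, and the log2 fold change was 0.27 (SE 0.07, adjusted p = 0.0127). Its adjusted p was 0.0562 to 0.0688 without wild type 1, wild type 2 or mutant 1.

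*Acad10*, a dehydrogenase linked to branched substrates, had 68.5, 60.6 and 49.4 in the wild type and 24.9, 10.6 and 25.4 in the mutant libraries, so that every mutant value was below every wild type value. The log2 fold change was -1.54 (SE 0.47, adjusted p = 0.0221), with an adjusted p of 0.066 to 0.0895 without wild type 1, wild type 2 or mutant 2. *Acad12*, its neighbour on chromosome 5, had 29.1, 33.6 and 44.7 against 22.8, 61.8 and 28.8 normalized counts. The transcripts of these neighbours are 95.29% identical over 1614 bases, so the split of reads between them is uncertain.

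The other dehydrogenases did not pass the test. *Acadm*, the medium-chain enzyme and the most highly counted of them, had 4977, 4644 and 5171 in the wild type and 5199, 5285 and 5476 in the mutant libraries (adjusted p = 0.259, log2 fold change 0.11, SE 0.07), without overlap between the groups. *Acad9*, which also serves in the assembly of respiratory complex I, had 2075, 1977 and 1998 against 2220, 2163 and 2180, again without overlap (adjusted p = 0.278, log2 fold change 0.12, SE 0.08). *Acadvl*, the very-long-chain enzyme, had 1755, 1641 and 1568 against 2160, 1726 and 2031, where mutant 2 lay below wild type 1 (adjusted p = 0.0603, log2 fold change 0.25, SE 0.10). Its exons overlap those of *Dvl2* on the opposite strand over 42.9% of their length, and whether reads were counted by strand is not stated. *Acads*, *Acadsb* and *Acad11* had log2 fold changes of -0.10, -0.23 and -0.36. *Acad11* changed sign to 0.011 without wild type 2, the library with its highest value.

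The later mitochondrial steps, hydration, the second dehydrogenation, thiolysis and the side reactions for unsaturated chains, held the most genes that rose. Of 9 genes, 6 rose, 0 fell and 7 were without overlap between groups on the higher side, with a median log2 fold change of 0.22. This median was 0.12 with library size as the only scaling, under which 2 rose and 1 fell, and 0.038 with the length correction, under which 2 rose. Of all tested genes, 13.6% rose, 15.1% fell and 20.8% were without overlap on the higher side. Among the 1189 tested genes with a mean of at least 3000 normalized counts and a transcript under 3000 bases, 49.96% rose and 6.06% fell. The 6 genes that rose were all in this class, and so was *Eci1*, which did not pass. *Hadh*, the short-chain 3-hydroxyacyl-CoA dehydrogenase, was the most highly counted of all 40 genes, with 11884, 11626 and 12626 normalized counts in the wild type and 14702, 15207 and 14559 in the mutant libraries. The groups were far apart relative to their spread, with a log2 fold change of 0.30 (SE 0.06, adjusted p = 0.00287).

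*Hadhb*, the beta subunit of the trifunctional protein, which holds its thiolase, had 3789, 3802 and 4520 in the wild type and 5458, 5284 and 5062 in the mutant libraries. The groups did not overlap (adjusted p = 0.00247, log2 fold change 0.38, SE 0.08). *Hadha*, the alpha subunit with the hydratase and dehydrogenase activities, had 2545, 2558 and 2121 in the wild type and 2237, 2021 and 2183 in the mutant libraries (adjusted p = 0.179, log2 fold change -0.17, SE 0.09). Its groups overlapped at wild type 3. With the length correction, log2 fold changes were -0.08 for *Hadha* (4020 bases, adjusted p = 0.465) and 0.30 for *Hadhb* (2046 bases, adjusted p = 0.0045). Without that correction, the ratio of *Hadhb* to *Hadha* was 1.49, 1.49 and 2.13 in the wild type and 2.44, 2.61 and 2.32 in the mutant libraries. The ratios did not overlap, with wild type 3 close to the mutants (exact permutation p = 0.1, the smallest possible, and 0.175 adjusted over 7 pairs).

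*Acaa2*, the mitochondrial thiolase for medium chains, had 8188, 7751 and 8664 normalized counts in the wild type and 9847, 9409 and 9385 in the mutant libraries, without overlap (adjusted p = 0.0236, log2 fold change 0.22, SE 0.07). *Echs1*, the short-chain hydratase, had 5570, 5516 and 6379 against 6566, 6874 and 6712 (adjusted p = 0.0449, log2 fold change 0.21, SE 0.07). In both genes the gap between the groups was small. The isomerase gene *Ech1* had 4090, 4300 and 4561 against 4864, 5542 and 5030 (adjusted p = 0.0199, log2 fold change 0.25, SE 0.08). *Eci2*, which shifts double bonds, had 2851, 2823 and 3396 against 3616, 3494 and 3653 (adjusted p = 0.0352, log2 fold change 0.25, SE 0.08). Both were higher in every mutant library than in any wild type library.

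None of these 4 genes passed in every fit that left out 1 library. The adjusted p was 0.0614 to 0.111 for *Acaa2*, 0.0958 to 0.168 for *Echs1* and 0.0691 to 0.146 for *Eci2* without any 1 library other than wild type 3. For *Ech1* it was 0.0507 to 0.115 without wild type 1, wild type 2, mutant 2 or mutant 3. *Eci1*, the other isomerase for such bonds, had 3047, 2790 and 3115 against 3555, 3467 and 3280 without overlap and did not pass (log2 fold change 0.20, adjusted p = 0.0551). *Decr1*, the dienoyl-CoA reductase, had a log2 fold change of 0.09 (adjusted p = 0.528), which became -0.019 with library size as the only scaling.

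The electron transfer flavoprotein, which takes electrons from the acyl-CoA dehydrogenases to the respiratory chain, rose in both of its subunits. *Etfb*, the beta subunit, had 4761, 4955 and 5411 normalized counts in the wild type and 6015, 6441 and 6277 in the mutant libraries. Its groups were well apart (adjusted p = 0.005, log2 fold change 0.31, SE 0.07). *Etfa*, the alpha subunit, had 9525, 9088 and 10482 against 11448, 11554 and 11487 (adjusted p = 0.0146, log2 fold change 0.25, SE 0.07). The mutant libraries of *Etfa* lay within a narrow range above all wild type libraries, but its adjusted p was 0.0539 to 0.0655 without any 1 library other than wild type 3. *Etfdh*, the oxidoreductase that receives the electrons, had 2638, 2351 and 2494 against 2903, 2725 and 2562 with overlap (adjusted p = 0.24, log2 fold change 0.13, SE 0.08). The ratio of *Etfb* to *Etfa* was 0.50, 0.545 and 0.516 in the wild type and 0.525, 0.557 and 0.546 in the mutant libraries, and these overlapped (exact permutation p = 0.2, 0.233 adjusted over 7 pairs).

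**Figure D2:**
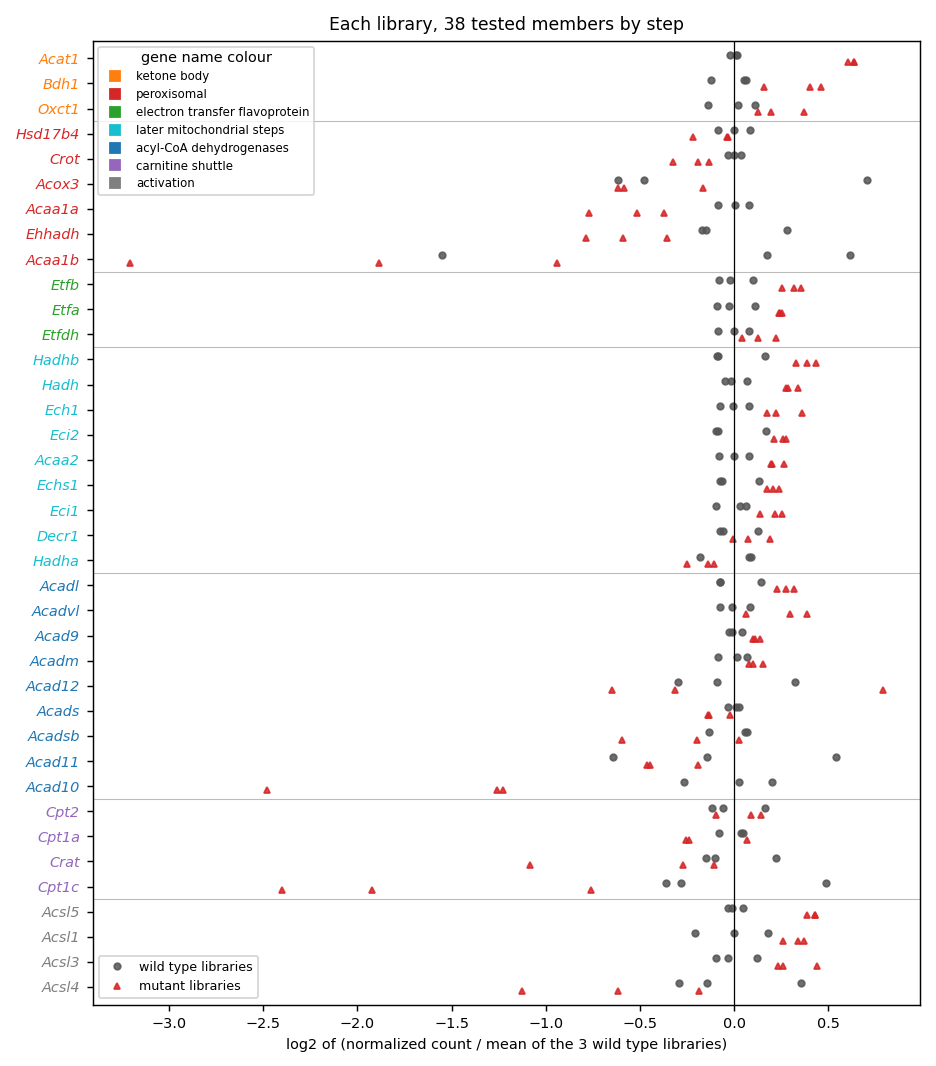
Each of the 38 tested genes in each library, as log2 of the normalized count over the wild type mean, with genes grouped by step. Mutant libraries of *Acat1*, *Acsl5*, *Hadhb*, *Hadh* and *Etfb* lay to the right of all wild type libraries, whereas those of *Acaa1a* and *Crot* lay to the left.

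The mitochondrial steps as a whole, 25 tested genes of 26, had 9 that rose and 2 that fell, with a median log2 fold change of 0.12, or 0.01 with library size as the only scaling. Abundance and transcript length moved with these rises over all genes. Among the 1626 tested genes with a mean of at least 3000 normalized counts, 44.8% rose and 7.69% fell, and 16 of the 38 genes were in this class, 12 of which rose and 1 fell. Among the 5098 with a mean under 300, 3.10% rose and 15.5% fell. That class held 7 of the 38 genes, of which 0 rose and 2 fell. Among the 1955 tested genes with a transcript under 1500 bases, 29.9% rose, against 6.69% of the 5325 genes with 3000 bases or more. After a loess correction for transcript length, log2 fold changes were 0.00 for *Etfb*, 0.04 for *Etfa*, 0.04 for *Acaa2*, 0.03 for *Echs1*, 0.02 for *Ech1* and 0.05 for *Eci2*. None of these 6 passed the test after the correction. *Eci1* became -0.057.

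*Hadhb* (0.30, adjusted p = 0.0045), *Hadh* (0.17, adjusted p = 0.0095) and *Acadl* (0.17, adjusted p = 0.035) still passed with the length correction, and so did *Acsl5* (0.46), *Acsl3* (0.36) and *Acsl1* (0.41). *Acsl4* (-0.53, adjusted p = 0.0938) and *Cpt1c* (-1.51, adjusted p = 0.0517) no longer passed. The part of transcript length and abundance in the rise of the short and abundant genes was not tested further.

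**Figure D3:**
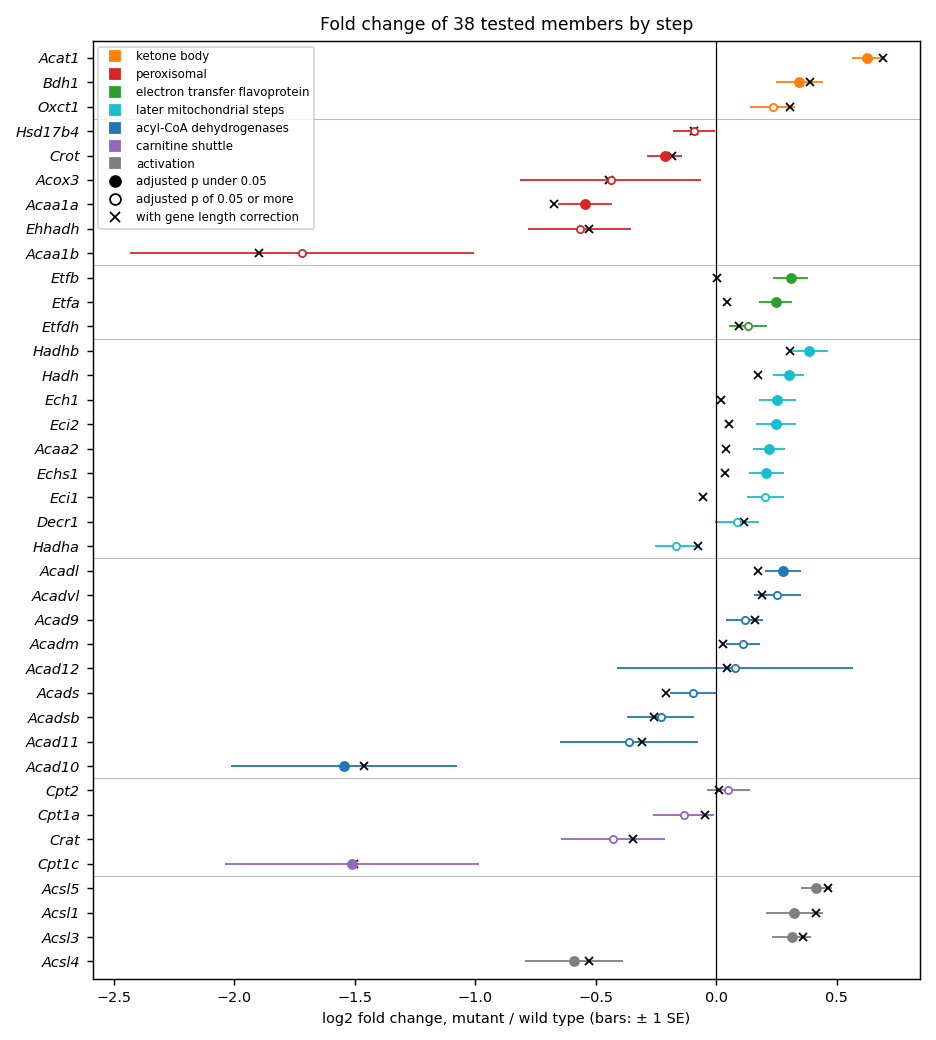
Log2 fold change of each tested gene with its SE, filled where the adjusted p was under 0.05, with a cross at the value after the gene length correction. The crosses of *Etfa*, *Etfb*, *Echs1*, *Ech1*, *Eci2* and *Acaa2* lay near 0, between 0.00 and 0.05, while that of *Acat1* lay at 0.69.

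**Figure D4:**
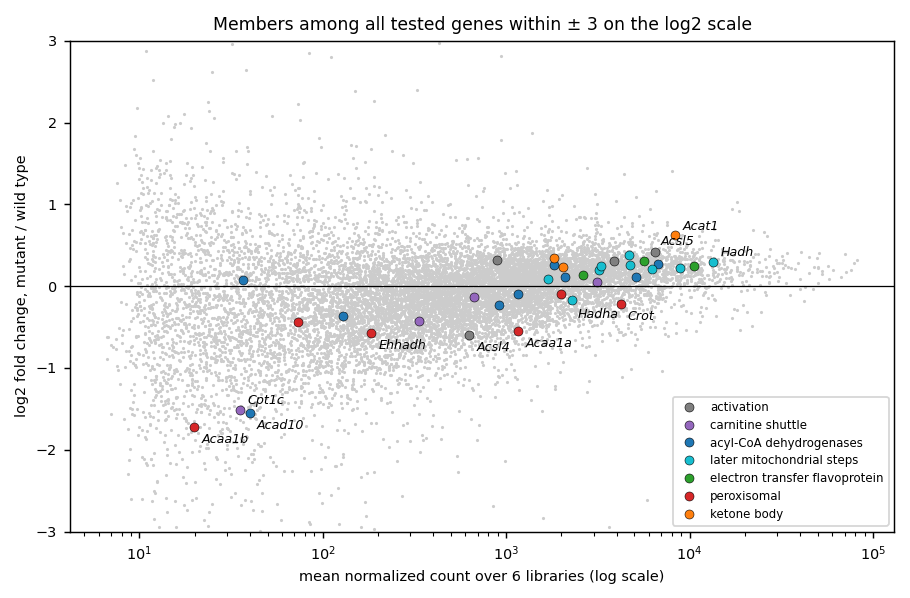
Log2 fold change against the mean normalized count (log scale) for all tested genes within 3 log2 units in grey and the 38 tested members coloured by step. Of the 16 members with a mean of at least 3000 counts, 12 passed the test as higher, against 44.8% of all tested genes in this class. Of the 7 with a mean under 300, 2 passed as lower, against 15.5% of all tested genes in that class.

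Per length of transcript, the electron carriers and the later enzymes led the pathway in the wild type. Normalized counts per 1000 bases were 6967 for *Etfa*, 6733 for *Hadh*, 5809 for *Etfb*, 5413 for *Acaa2* and 3739 for *Echs1*. The lowest tested genes on this scale were *Acad12* at 15.1, *Acad10* at 15.5, *Acaa1b* at 18.1 and *Cpt1c* at 19.1. *Acat1* stood at 1923 and *Acsl5* at 1773. The 15 members with a mean above 3000 counts in the wild type had a median coefficient of variation between libraries of 6.62% in the wild type and 2.73% in the mutant group.

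The 6 tested peroxisomal genes were all lower in the mutants (median log2 fold change -0.49), and 2 of them, *Acaa1a* and *Crot*, passed the test. The median was -0.60 with library size as the only scaling and -0.49 with the length correction. Without wild type 2 it was -0.37 and 1 of the 6, *Acox3*, turned to 0.11. *Acaa1b*, *Acox3* and *Ehhadh* had means under 300 normalized counts. Over all 5098 tested genes of that class the median log2 fold change was -0.27, and 3.10% rose and 15.5% fell. The part of low abundance in the lower values of these genes was not tested. The step summed to 441, 457 and 424 CPM in the wild type and 362, 316 and 358 in the mutant libraries, without overlap.

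*Acaa1a* (chr9:119250412-119259413), which encodes the peroxisomal thiolase that ends each round, had 1295, 1451 and 1380 normalized counts in the wild type and 963, 806 and 1062 in the mutant libraries. Every mutant library was below every wild type library, with a mean of 1375 ± 77.9 against 944 ± 129 and a log2 fold change of -0.54 (SE 0.11, adjusted p = 0.00236). It passed at an adjusted p under 0.05 in each of the 6 fits that left out 1 library. The call itself, at 0.01 and 0.5, was lost without wild type 2 (log2 fold change -0.50, adjusted p = 0.0148), mutant 1 (-0.56, adjusted p = 0.0107) or mutant 2 (-0.44, adjusted p = 0.0155). *Acaa1b*, a near copy, had 46.9, 34.5 and 10.5 against 8.28, 16.0 and 3.32 with overlap (adjusted p = 0.0825, log2 fold change -1.72, SE 0.71). The transcripts of both thiolases are 96.64% identical over 1428 bases, so how uniquely mapped reads divide between them is uncertain.

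*Crot*, the octanoyltransferase that passes shortened chains from peroxisomes to carnitine, had 4512, 4426 and 4634 in the wild type and 4126, 3615 and 3952 in the mutant libraries. The groups did not overlap (adjusted p = 0.0376, log2 fold change -0.21, SE 0.07), but its adjusted p was 0.0539 to 0.182 without any 1 library other than wild type 3. *Ehhadh*, the bifunctional enzyme of the straight-chain pathway, had 266, 198 and 195 against 146, 171 and 127, again without overlap, and just missed the threshold (adjusted p = 0.0576, log2 fold change -0.57, SE 0.21). *Hsd17b4*, the bifunctional enzyme for branched chains, had 2058, 2183 and 1940 against 2010, 1772 and 2012 with overlap (log2 fold change -0.09, adjusted p = 0.456). *Acox3*, the oxidase for branched chains, had 55.3, 138 and 60.8 against 75.6, 56.4 and 55.3, and its difference rested on wild type 2. *Acox2*, the oxidase for bile acid intermediates, had 1 count in all, in mutant 2, and was not tested.

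Both thiolases can be set side by side within a library. The ratio of the mitochondrial *Acaa2* to the peroxisomal *Acaa1a* was 6.32, 5.34 and 6.28 in the wild type and 10.2, 11.7 and 8.84 in the mutant libraries. Every mutant library was above all wild type libraries for *Acaa2* and below them for *Acaa1a*, so the ratios could not overlap. The exact permutation p was thereby fixed at 0.1, the smallest possible (0.175 adjusted over 7 pairs), and adds nothing to the values of both genes.

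All 3 ketone body genes were higher in every mutant library than in any wild type library, and 2 passed the test. Over all tested genes, 20.8% were without overlap on the higher side and 13.6% rose. The mean of *Acat1* was at least 3000 normalized counts, a class in which 44.8% of all tested genes rose and 7.69% fell. *Acat1* (chr9:53388627-53418487), the mitochondrial acetoacetyl-CoA thiolase that acts in both the making and the use of ketone bodies and in isoleucine breakdown, showed the clearest change of the 40 genes. It had 6443, 6619 and 6580 normalized counts in the wild type and 9962, 10157 and 10176 in the mutant libraries. The groups lay far apart, with means of 6547 ± 92.3 and 10098 ± 118, a 1.54-fold rise and a log2 fold change of 0.63 (SE 0.06, adjusted p = 3.83e-06). The call was kept in all 13 other fits, with log2 fold changes from 0.52 with library size as the only scaling to 0.69 with the length correction.

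*Bdh1*, which interconverts acetoacetate and beta-hydroxybutyrate, had 1476, 1668 and 1682 in the wild type and 2125, 2211 and 1792 in the mutant libraries. The groups were apart, with mutant 3 nearest to the wild type (adjusted p = 0.0156, log2 fold change 0.34, SE 0.10). It did not pass without wild type 1, mutant 1 or mutant 2 (adjusted p 0.0686 to 0.0838). *Oxct1*, the transferase with which tissues use ketone bodies, had 2032, 1704 and 1903 against 2152, 2050 and 2431 (adjusted p = 0.0714, log2 fold change 0.23, SE 0.09). Its lowest mutant library lay just above its highest wild type library, and it passed after the length correction (0.30, adjusted p = 0.0233) but not with library size as the only scaling (0.13, adjusted p = 0.306). *Bdh1* did not pass with that scaling either (0.24, adjusted p = 0.0725), which left 1 of the 3 genes. The ratio of *Acat1* to *Oxct1* was 3.17, 3.88 and 3.46 in the wild type and 4.63, 4.95 and 4.19 in the mutant libraries. These did not overlap (exact permutation p = 0.1, the smallest possible, and 0.175 adjusted over 7 pairs).

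**Figure D5:**
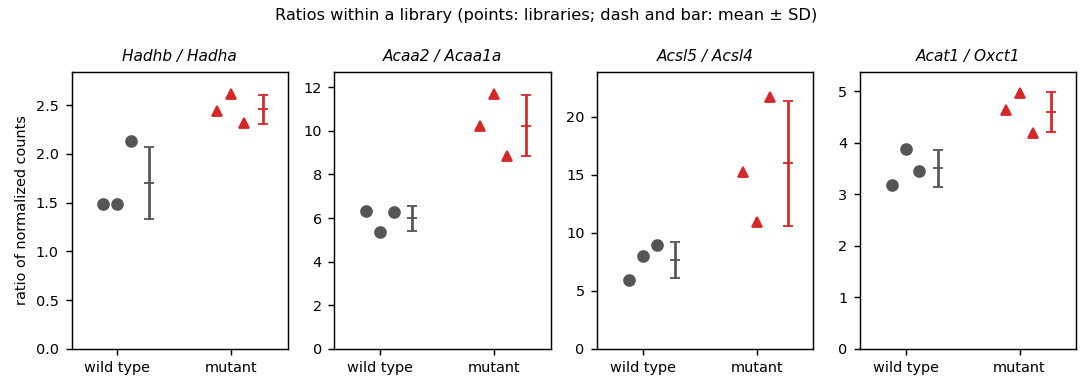
Ratios of normalized counts of paired genes within each library, with points for the 6 libraries and the mean ± SD (n = 3). Of the 7 pairs tested, only those at an exact permutation p of 0.1, the smallest possible, are drawn. The ratios were not corrected for transcript length. The ratio of *Hadhb* to *Hadha* lay between 1.49 and 2.13 in the wild type and between 2.32 and 2.61 in the mutant libraries, that of *Acaa2* to *Acaa1a* 5.34 to 6.32 and 8.84 to 11.7.

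Markers of other cells moved as well. The 12 enterocyte markers summed to 1014 ± 21.7 CPM in the wild type and 1145 ± 45.2 in the mutant libraries, and of 10 tested, 5 were called higher (*Fabp1*, *Fabp2*, *Mttp*, *Apoa4* and *Alpi*) and 1 lower (*Krt20*). The 10 liver markers summed to between 307 and 354 CPM over the wild type libraries and between 173 and 191 over the mutant ones, with *Serpina1a*, *Serpina1b* and *Fgb* called lower and 3 of the 10 at 0. The 6 stomach markers summed to 45.4 CPM on average in wild type and 6.63 CPM in mutant libraries, with 2 called lower. Mesenchyme markers lay between 67.7 and 83.3 CPM in wild type and between 50.7 and 72.3 CPM in mutant libraries, with *Vim* and *Col3a1* lower and *Acta2* higher at an adjusted p under 0.05, the last mostly in mutant 3. Mesothelium markers lay between 28.4 and 44.1 CPM in wild type and between 21.4 and 35.4 CPM in mutant libraries, with *Msln* called lower. Muscle markers lay between 4.55 and 7.23 CPM in wild type and between 9.83 and 15.0 CPM in mutant libraries, with *Myl7* called higher. Of 9 stress genes, 5 rose and 2 fell, with *Atf3* and *Hspa1b* called higher and *Jun* called lower (sum 2919 ± 86.4 against 3200 ± 165 CPM). Blood markers were near 0, at most 1.31 CPM in any library, with 6 of 10 at 0. The part of these cells and of stress in the values of *Acat1*, *Acsl5* and *Acaa1a* was not tested.

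Other genes around the pathway were read from lists of the same fit, in which 13.6 percent of all 12501 tested genes rose and 15.1 percent fell. Of 16 listed genes of fatty acid uptake and carnitine supply, 8 were tested, 0 rose and 2 fell. *Slc27a3*, a fatty acid transport protein with acyl-CoA synthetase activity, was called lower (409 ± 84.6 against 193 ± 58.6 normalized counts, adjusted p = 0.00234, log2 fold change -1.08, SE 0.22), a call lost without wild type 2 (adjusted p = 0.0191) or mutant 2 (adjusted p = 0.0107). *Slc27a1* fell by 0.93 on the log2 scale (adjusted p = 0.0298), with an adjusted p of 0.0546 to 0.127 without wild type 1, wild type 2, mutant 2 or mutant 3.

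Of 16 tested genes of other mitochondrial acyl-CoA reactions, 4 rose and 2 fell. *Pccb*, the beta subunit of propionyl-CoA carboxylase, was called higher with 1142, 1160 and 1268 normalized counts in the wild type and 2345, 2249 and 2435 in the mutant libraries. This was a log2 fold change of 0.98 (SE 0.09, adjusted p = 1.04e-06), larger than that of any of the 40 genes that rose. *Acss1*, the mitochondrial acetyl-CoA synthetase (416 ± 82.3 against 94.0 ± 25.9, adjusted p = 6.17e-06, log2 fold change -2.14, SE 0.23), and *Acsm3*, a medium-chain synthetase (811 ± 204 against 350 ± 62.6, adjusted p = 0.000189, log2 fold change -1.21, SE 0.18), were called lower. The thioesterase gene *Acot13* rose by 0.48 on the log2 scale (adjusted p = 0.0015), but by 0.13 (adjusted p = 0.244) with the length correction. *Acot9* and *Hsd17b10*, both on chromosome X, also rose, and neither passed with that correction. Sex differed with the genotype in these libraries, and its part in these rises was not tested. *Acot9* did not pass without wild type 1, wild type 2, mutant 1 or mutant 3 (adjusted p 0.0988 to 0.223), nor *Hsd17b10* without any 1 library other than wild type 3 (0.071 to 0.178).

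Of 17 other tested peroxisomal genes, 3 rose and 2 fell. *Nudt19*, a coenzyme A hydrolase, was called higher (3161 ± 323 against 5664 ± 387, adjusted p = 3.32e-06, log2 fold change 0.84, SE 0.08). *Pecr*, the trans-2-enoyl-CoA reductase, was also called higher (1310 ± 64.9 against 2068 ± 66.6, adjusted p = 5.75e-05, log2 fold change 0.66, SE 0.09), and lost the call at 0.41 with the length correction. *Phyh*, which starts alpha oxidation, rose (log2 fold change 0.43, adjusted p = 0.00108). *Abcd3*, a transporter of the peroxisomal membrane, fell (log2 fold change -0.22, adjusted p = 0.0415), but did not pass without any 1 library other than wild type 3 (adjusted p 0.0564 to 0.143). The lower values of the 6 peroxisomal members were thus not shared by all peroxisomal genes.

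Of 15 tested genes of peroxisome assembly, 1 rose (*Pex16*, log2 fold change 0.39) and 3 fell (*Pex5*, *Pex6* and *Pex10*), with a median of 0.01. *Pex16*, *Pex5* and *Pex10* each missed the threshold without any of 4 libraries, wild type 2 and mutant 2 among them (adjusted p of at most 0.173, 0.176 and 0.165). *Pex6*, an ATPase that recycles the import receptor, was called lower (log2 fold change -1.37, adjusted p = 0.00021).

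Of 8 other tested ketone body genes, 2 rose and 1 fell. *Slc16a1*, the monocarboxylate transporter that carries ketone bodies, rose (3271 ± 235 against 3904 ± 287, log2 fold change 0.26, adjusted p = 0.0271), but did not pass with library size as the only scaling (0.15, adjusted p = 0.14) or without wild type 1, wild type 2, mutant 1 or mutant 3 (0.0736 to 0.15). *Aacs*, the cytosolic acetoacetyl-CoA synthetase, was called lower with 1899, 2064 and 1442 normalized counts in the wild type and 1162, 1005 and 1264 in the mutant libraries, without overlap (adjusted p = 0.00138, log2 fold change -0.66, SE 0.13). Its call was lost without wild type 2 (adjusted p = 0.012).

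Among 21 tested regulators and PPAR targets, 0 rose and 2 fell. Their median mean count was 125, and of all tested genes with a mean under 300, 3.10% rose and 15.5% fell. *Rxra*, the retinoid X receptor that pairs with the PPARs, was called lower (216 ± 32.8 against 119 ± 19.4, adjusted p = 0.00904, log2 fold change -0.85, SE 0.22), and its call was lost without any 1 library other than wild type 3 (adjusted p 0.0119 to 0.0506). *Acacb*, whose product makes the malonyl-CoA that inhibits CPT1, fell by 0.96 on the log2 scale (adjusted p = 0.0497), and passed in none of the 6 fits that left out 1 library (adjusted p 0.0512 to 0.193). *Ppara* and *Ppargc1a* did not pass and are named after their values were seen. *Ppara*, the main activator of these genes in liver, had 86.3, 89.5 and 46.6 against 136, 142 and 84.1 normalized counts with overlap (log2 fold change 0.70, adjusted p = 0.11). *Ppargc1a*, a coactivator of mitochondrial genes, was scarce at 2.81 to 20.5 against 16.6 to 53.1.

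Of the 17 genes of the citrate cycle, which receives the acetyl-CoA, 12 rose and 1 fell, with a median log2 fold change of 0.25. With library size as the only scaling 7 rose, and with the length correction 9. The median mean count of these genes was 7462, and of all tested genes with a mean of at least 3000, 44.8% rose and 7.69% fell.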

How the data were processed

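RNA-sequencing counts of 6 libraries were used, 3 mutant and 3 wild type. Per the labels and the paper's methods, the authors sorted 500 EpCAM-positive cells per library, amplified cDNA for 15 cycles, mapped reads with STAR 2.5.2b to mm9 and counted unique reads per gene with featureCounts 1.5.1 on a UCSC gene model. They deposited raw counts without normalization. The strand setting, litter and pooling of embryos are not stated. PCR reads without molecular identifiers are not independent molecules, so floors cover counting error only.

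Here, genes were tested with edgeR 4.0.16 (R 4.3.3) by TMM, filterByExpr, a quasi-likelihood test on genotype over all 6 libraries and Benjamini-Hochberg adjustment over 12501 genes. Ratios were tested by exact two-sided permutation. The call follows the study's thresholds, with a mean normalized count of 50 in place of its expression limit. Members and lists were chosen with earlier results of these data known. All 40 members are named, with library values for those that passed, and genes of the other lists where called or among the 3 largest rises or falls of a list. Some genes of these lists are not reported here. Alternatives were DESeq2 1.42.0, RLE, library size only, other filters and thresholds, a loess length correction (span 0.5), a fit with a replicate block, and fits without each library in turn. Positions and lengths are from an mm9 annotation (gencode, transcript with the longest coding sequence), and near copies from BLAST+ 2.17.0. The fit was tested on simulated data. Libraries of a group differed beyond sampling noise, and none were merged. Python 3.11.15 and matplotlib 3.10.9 drew the figures.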

Additional observations from a re-analysis of the deposited data

How the results depend on the processing

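Over 490 combinations of a member and another setting, 390 kept direction and side of the 0.05 threshold, 76 no longer passed, 15 newly passed and 9 changed sign. The sign changes were *Cpt2* (-0.058), *Acad12* (-0.025) and *Decr1* (-0.019) with library size only, *Acad12* with the replicate block (-0.022), without wild type 1 and without mutant 2, *Eci1* with the length correction (-0.057), and *Acad11* and *Acox3* without wild type 2. With 1 library left out, *Acad11* ranged from -0.59 to 0.011, *Acad12* from -0.47 to 0.34 and *Acox3* from -0.67 to 0.11. Their cause was not tested. Members that rose at an adjusted p under 0.05 numbered 14, but 6 with library size only, 9 with the length correction and 6 to 15 with 1 library left out. Those that fell numbered 5, but 3 with a filter at a mean of 50 counts, 3 with the length correction and 1 to 8 with 1 library left out. Members called lower numbered 1, but 2 without a filter and 0 to 1 with 1 library left out, and 0 were called in either direction with a minimum log2 fold change of 1. At an adjusted p under 0.05 with no minimum fold, 14 members were higher and 5 lower. Over all genes, 348 were called higher, 200 with library size only (17.3% of all calls against 32.3%), 85 with a minimum log2 fold change of 1 and 1702 with no minimum fold. Lower calls numbered 729, 284 and 1892 under these thresholds and 405 to 867 with 1 library left out. Lower calls of other pathway genes numbered 5 and 2 to 5 with 1 library left out. These fits use fewer libraries.

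Same-numbered libraries did not deviate together (correlations of 0.0097, -0.045 and -0.018), so the numbers do not pair them. With the replicate block, 10 members rose and 4 fell. Depth limits *Acox2*, *Acaa1b*, *Acad12* and *Ppargc1a*, all under 50 normalized counts in each group. It also limits *Cpt1c* and *Acad10*, with means of 18.3 and 20.3 in the mutants, which were not tested under the filter at a mean of 50 counts. *Cpt1b* is not listed, since its overlap with *Chkb* means that its 0 counts set no limit.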
